A study of Mus musculus with 4 samples.

Results

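The nuclear genes for subunits of respiratory complexes II, III and IV and of ATP synthase, with cytochrome c, were examined in rib chondrocytes of mice lacking Kdm6a and Kdm6b in cartilage and of wild type mice. Members were the listed genes with a symbol starting with Uqcr, Cox4 to Cox8 or Atp5, or named Sdha, Sdhb, Sdhc, Sdhd, Cyc1 or Cycs. This gave 48 of the 17575 genes listed in any library: 4 of complex II, 9 of complex III, 1 for cytochrome c, 18 of complex IV and 16 of ATP synthase. The mice were C57/Bl6 and 10 days old, and their rib cartilage was digested overnight with collagenase II, after which cells were filtered and plated, so RNA came from cultured cells. 2 libraries were knockout, from mice carrying a Cre transgene driven by Col2 and Kdm6a(fl/fl) and Kdm6b(fl/fl) alleles, and 2 were wild type, for which no allele is named. The Col2 promoter is known to act in cartilage cells, and in which cells the alleles were deleted was not measured. The series text mentions triplicates, of which 2 libraries a group were used. Whether replicates are different animals is not stated, and p-values here reflect only the variation among these libraries, which may be technical.

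In oxidative phosphorylation, electrons from succinate enter at complex II and pass through complex III and cytochrome c to complex IV, which reduces oxygen. Complexes III and IV pump protons across the inner mitochondrial membrane, and ATP synthase uses the returning protons to make ATP. All subunits of complex II are encoded in the nucleus, whereas the other complexes also hold subunits encoded in mitochondrial DNA, which were not analysed here. Growth cartilage has little blood supply, and its chondrocytes are known for relying largely on glycolysis. Kdm6a and Kdm6b encode demethylases that remove a repressive methyl mark from histone H3.

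Estimated counts summed to 32332044 and 32230980 in the knockout libraries and to 31616619 and 31178248 in the wild type libraries. Both targeted genes were lower in the knockout: Kdm6a fell by 0.87 on the log2 scale (adjusted p = 0.0049) and Kdm6b by 1.35 (adjusted p = 0.0017) in edgeR's quasi-likelihood test with Benjamini-Hochberg adjustment, and both kept counts in the knockout libraries. All 7 chondrocyte markers were present and tested, and 4 were higher, 1 was lower and 2 did not pass. Matn3, Col11a1, Col9a1 and Col2a1, matrix genes of cartilage, had log2 fold changes of 1.95, 0.61, 0.57 and 0.55, Matn1, another matrix gene, had -2.10, and Acan and Sox9 had 0.33 and -0.19. Markers of other cell types were examined too. Macrophage markers summed to 31.6 and 32.1 counts scaled to library size (CPM) in the knockout libraries, against 49.8 and 46.7 CPM in the wild type libraries, with 1 of 6 lower and 0 higher in edgeR. Endothelial markers summed to 77.4 and 64.2 CPM, against 106 and 98.9 CPM, with 3 of 5 lower. Of 3 tested erythroid markers, 2 were lower and 0 higher. Of 4 tested brown adipocyte markers, 1 was lower and 0 higher. The lower one, Ucp1, had 0.214 and 0.153 CPM, against 0.759 and 0.856 CPM. All 6 of that list summed to 14.0 and 14.6 CPM, against 15.8 and 13.8 CPM. Osteoblast markers summed to 1.77 and 3.38 CPM, against 6.89 and 6.58 CPM, with 1 of 5 lower and Bglap2 at 0 in knockout replicate 1. In bulk RNA, fewer cells of a type and less RNA per cell cannot be told apart, and the part of these cells in the results on subunit genes was not tested.

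Of the 48 subunit genes, 44 had enough counts to be tested. 6 of them rose in the knockout, 0 fell and 38 did not pass (edgeR, adjusted p under 0.05). The 6 were 13.6% of the tested subunit genes, where 3.62% of the 13773 tested genes of the whole table were higher and 5.63% were lower. They were Cox7b and Cox7c of complex IV and Atp5g1, Atp5j, Atp5o and Atp5l of ATP synthase. 0 of 4 genes of complex II and 0 of 9 of complex III passed, and Cycs did not pass. 24 subunit genes were higher and 0 lower at an unadjusted edgeR p under 0.05, where 13.8% of all tested genes were higher and 15.3% lower.

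Most of the 44 genes lay slightly above wild type. The log2 fold change was above 0 for 42 of them, against 50.6% of all tested genes. In 33 genes both knockout libraries lay above both wild type libraries, against 30.9% of all tested genes, and in 1 gene, Cox7a1, both lay below, against 30.7%. The median log2 fold change was 0.21 over the subunit genes and 0.0044 over all tested genes. By complex it was 0.20 in complex II, 0.20 in complex III, 0.24 in complex IV and 0.28 in ATP synthase, and Cycs had 0.13. The wild type libraries differed from each other too: the median deviation of the subunit genes from their mean over the 4 libraries was 0.10 and 0.10 on the log2 scale in the knockout libraries, against -0.06 and -0.17 in wild type replicates 1 and 2. Wild type replicate 2 was thus the lowest library for most subunit genes.

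**Figure D1:**
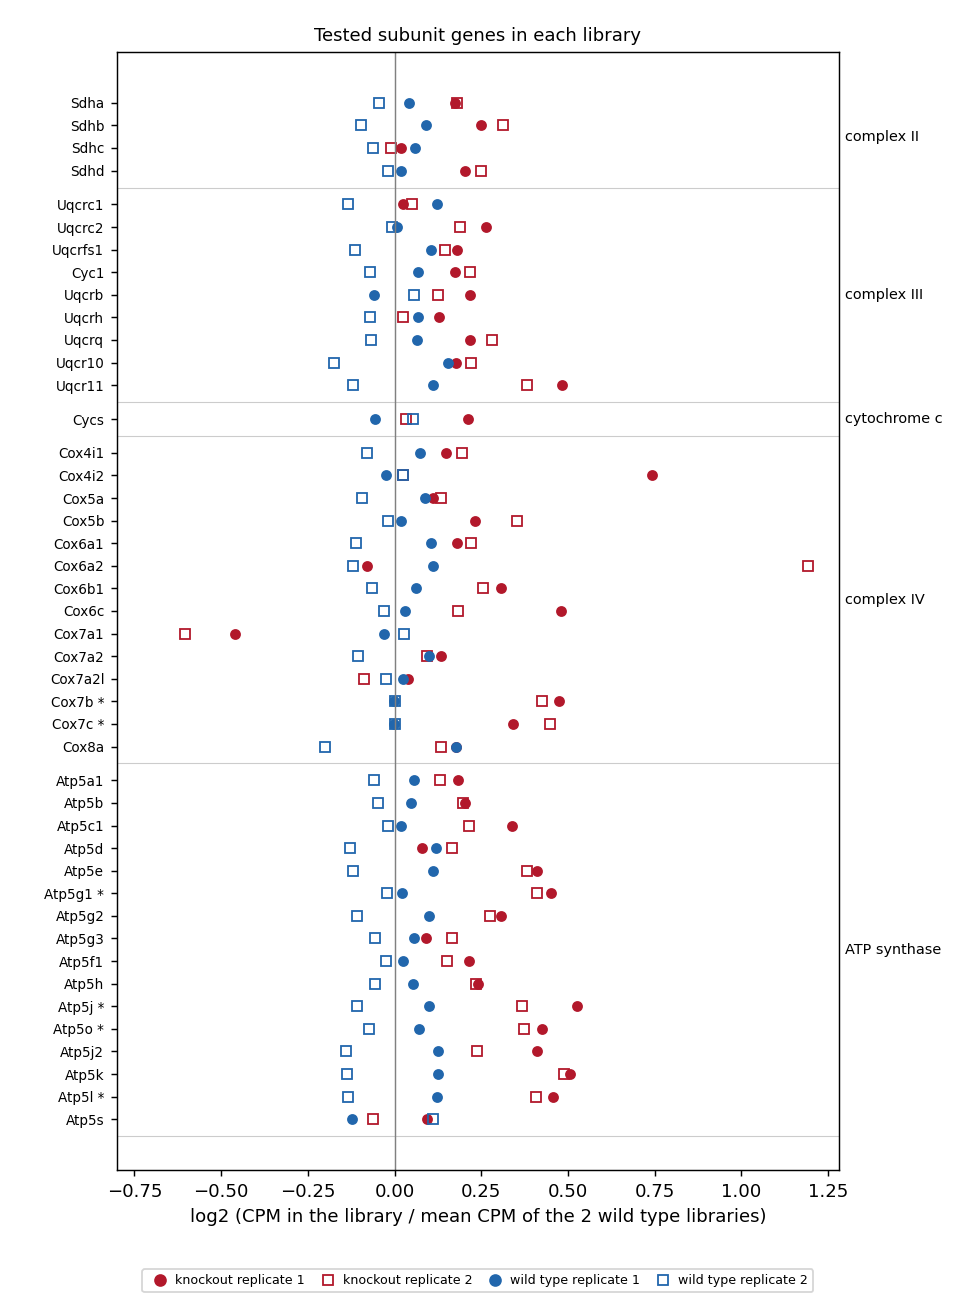
Each row is a tested subunit gene, and points give the log2 ratio of its CPM in each knockout library (red) and wild type library (blue) to the mean CPM of the wild type libraries. An asterisk marks the 6 genes past the threshold. Most red points lie right of 0 by less than 0.5, and Cox6a2 and Cox4i2 have the widest ranges over the libraries.

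All 6 genes were no longer called with either wild type library left out, but a group of 1 library is too small to judge a call. Such fits leave 1 library in a group, so only effect sizes are given here. Leaving out wild type replicate 1 gave the 6 genes log2 fold changes of 0.40 to 0.57, beside a median of 0.0065 over all tested genes. With wild type replicate 2 left out, the 6 ranged from 0.32 to 0.46, beside 0.010. Of the 44 subunit genes, 42 and 39 lay above 0 in these 2 fits. Dropping knockout replicate 1 gave the 6 genes 0.37 to 0.45, beside 0.0052 over all tested genes. Dropping knockout replicate 2 gave 0.35 to 0.54, beside 0.0018.

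ATP synthase had the most called genes, 4 of its 16. Its catalytic head, which makes ATP from ADP, is built mainly of alpha and beta subunits, its rotor turns with a ring of c subunits, and a peripheral stalk holds the head still. All 16 genes had a log2 fold change above 0, 14 had both knockout libraries above both wild type libraries and 12 had an unadjusted p under 0.05.

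Atp5g1 encodes a c subunit of the rotor ring, with the mature protein also made from Atp5g2 and Atp5g3. It had 71.8 and 69.9 CPM in the knockout libraries, against 53.3 and 51.8 CPM in the wild type libraries. The replicates lay close together and the groups did not overlap. The log2 fold change was 0.43 (SE 0.069, adjusted p = 0.0173 in edgeR). Atp5g2 had 91.9 and 89.9 CPM, against 79.7 and 68.9 CPM, with a log2 fold change of 0.29 (adjusted p = 0.0908). Atp5g3 had 118 and 124 CPM, against 115 and 106 CPM, with a log2 fold change of 0.13 (adjusted p = 0.313). The groups were separated in both of these genes, but neither passed.

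Atp5o and Atp5j encode the oligomycin sensitivity subunit and coupling factor 6 of the peripheral stalk. Atp5o had 75.0 and 72.5 CPM in the knockout libraries, against 58.7 and 53.1 CPM in the wild type libraries, a log2 fold change of 0.40 (SE 0.079, adjusted p = 0.0310 in edgeR). Atp5j had 77.7 and 69.5 CPM in the knockout libraries, against 57.8 and 50.04 CPM in the wild type libraries, a log2 fold change of 0.45 (SE 0.099, adjusted p = 0.0419 in edgeR). In both genes the lower knockout library was above the higher wild type library. Counts of Atp5j were not whole in all 4 libraries, as happens where reads are shared with other sequences, so its level is less certain than that of Atp5o. The other stalk genes, Atp5f1 and Atp5h, had log2 fold changes of 0.18 (adjusted p = 0.149) and 0.24 (adjusted p = 0.0971), and counts of Atp5f1 were also not whole.

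Atp5l encodes subunit g, and Atp5k subunit e, which sit in the membrane where ATP synthase forms dimers. Atp5l had 79.9 and 77.2 CPM in the knockout libraries, against 63.3 and 53.0 CPM in the wild type libraries, a log2 fold change of 0.43 (SE 0.099, adjusted p = 0.0451 in edgeR). The wild type libraries differed more from each other than the knockout libraries did. Atp5k had 20.5 and 20.3 CPM in the knockout libraries, against 15.7 and 13.1 CPM in the wild type libraries, with a log2 fold change of 0.50 and an adjusted p of 0.0535, just outside the threshold. Atp5j2, which encodes membrane subunit f, had a log2 fold change of 0.33 (adjusted p = 0.125), and its counts were not whole in 3 libraries.

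None of the genes of the catalytic head passed. Atp5b, the beta subunit that carries the catalytic sites, had the highest level of all subunit genes, with 358 and 355 FPKM (fragments per kilobase of gene and per library size, a level that allows for gene length) in the knockout libraries, against 317 and 289 FPKM in the wild type libraries. Its log2 fold change was 0.20 (adjusted p = 0.135). Atp5a1, the alpha subunit, had 210 and 202 FPKM, against 190 and 171 FPKM, with a log2 fold change of 0.16 (adjusted p = 0.227). The stalk subunits gamma, delta and epsilon of the head, from Atp5c1, Atp5d and Atp5e, had log2 fold changes of 0.28, 0.12 and 0.40, with adjusted p of 0.0722, 0.440 and 0.0798. Atp5s, the least abundant of the group, had 1.37 and 1.22 FPKM, against 1.16 and 1.33 FPKM, with overlapping groups and a log2 fold change of 0.02. Its current RefSeq name is Dmac2l, and its product is an associated factor rather than a subunit of the core enzyme.

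Complex IV, cytochrome c oxidase, had 14 tested genes, of which 2 rose, both for small subunits around the core that is encoded in mitochondrial DNA. Cox7b, on the X chromosome, is known in humans for mutations that cause a syndrome with linear skin defects. It had 72.3 and 69.9 CPM in the knockout libraries, against 51.9 and 52.1 CPM in the wild type libraries, a log2 fold change of 0.45 (SE 0.069, adjusted p = 0.0151 in edgeR). The replicates of each group lay close together and far from the other group. The Y-linked genes Ddx3y and Uty were at most 0.166 and 0.109 CPM in every library. Cox7c had 67.7 and 73.0 CPM in the knockout libraries, against 53.4 and 53.5 CPM in the wild type libraries, a log2 fold change of 0.40 (SE 0.074, adjusted p = 0.0265 in edgeR), again with no overlap.

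Other subunits of complex IV that are expressed in most tissues lay on the same side without passing. Cox5b, which binds zinc, had 64.5 and 70.1 CPM in the knockout libraries, against 55.6 and 54.2 CPM in the wild type libraries, with a log2 fold change of 0.29 (adjusted p = 0.0624). Cox6b1, which faces the intermembrane space, had 86.4 and 83.3 CPM, against 72.9 and 66.7 CPM, with a log2 fold change of 0.28 (adjusted p = 0.0697). Cox6c, the complex IV gene with the highest mean FPKM, had 106 and 86.4 CPM, against 77.7 and 74.7 CPM, with a log2 fold change of 0.34 (adjusted p = 0.1003), and knockout replicate 1 stood above the other libraries. Without knockout replicate 2, Cox6c had a log2 fold change of 0.49, and without knockout replicate 1 it had 0.18. Cox4i1, Cox5a, Cox6a1, Cox7a2 and Cox8a had log2 fold changes of 0.17, 0.12, 0.20, 0.11 and 0.15. Wild type replicate 1 reached into the knockout range for Cox7a2 and Cox8a. Cox7a2l, which encodes a relative of subunit 7a, had 81.0 and 74.2 CPM, against 80.1 and 77.5 CPM. Its log2 fold change of -0.023 turned to 0.013 with scaling by library totals.

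Several complex IV subunits come in forms used by different tissues, and these cells used the forms of most tissues. Cox4i2, a form known from lung and induced by low oxygen, had 13.85 and 8.41 FPKM in the knockout libraries, against 8.03 and 8.10 FPKM in the wild type libraries, beside 149 and 152 FPKM, against 139 and 122 FPKM, for Cox4i1. Knockout replicate 1 alone was high, and the log2 fold change of 0.43 did not pass (SE 0.243, adjusted p = 0.285). Without knockout replicate 2 it was 0.75, and without knockout replicate 1 it was 0.027. Cox4i2 made up 8.53% and 5.23% of the summed FPKM of the Cox4 pair in the knockout libraries, against 5.47% and 6.23% in the wild type libraries, so the groups overlapped.

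Cox6a2, Cox7a1 and Cox8b are the forms known from heart and skeletal muscle. Cox6a2 had 0.47 and 1.14 FPKM in the knockout libraries, against 0.53 and 0.44 FPKM in the wild type libraries, or at most 0.852% of the Cox6a pair. Knockout replicate 2, the high one, also had the highest sum of the 10 skeletal muscle markers, with 8.33 and 28.95 CPM in the knockout libraries, against 11.2 and 10.9 CPM in the wild type libraries. Myh8 was at 0 in the other 3 libraries. Of the 8 tested muscle markers 1 was higher and 0 lower, and their part in the level of Cox6a2 was not tested. The log2 fold change of Cox6a2 was 0.68 with all libraries, which did not pass (adjusted p = 0.446), and -0.068 without knockout replicate 2.

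Cox7a1 had 1.71 and 1.54 FPKM in the knockout libraries, against 2.27 and 2.31 FPKM in the wild type libraries, and was lowest in knockout replicate 2, where Cox6a2 was highest. It is the subunit gene in which both knockout libraries were lower, with a log2 fold change of -0.53 that did not pass (SE 0.341, adjusted p = 0.345) and 18 to 26 counts per library. As shares of the summed FPKM of the Cox7a genes, Cox7a1 took 1.29% and 1.24%, against 1.76% and 1.98%, Cox7a2 41.4% and 42.8%, against 40.8% and 38.2%, and Cox7a2l 57.3% and 56.0%, against 57.4% and 59.8%. The shares of all 3 were separated between the groups, and the exact permutation p of 0.333 (two-sided) is the smallest that 2 against 2 libraries can give.

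The 4 genes under the count filter were Cox8b and the forms known from testis, Cox6b2, Cox7b2 and Cox8c. Cox6b2 had 5 and 9 counts in the knockout libraries and 5 and 11 in the wild type libraries, and Cox7b2 had 3 and 1, against 3 and 0. Cox8b had 1 count in knockout replicate 2 and Cox8c 1 in each knockout library, and neither was listed in the wild type libraries. For Cox7b2, Cox8b and Cox8c the values do not pass the limit of 3 counts that a count of 0 allows, and the counts of Cox6b2 overlapped between the groups, so no difference was detectable at this depth. Their widely expressed partners had 184 and 177 FPKM in the knockout libraries, against 153 and 137 FPKM in the wild type libraries, for Cox6b1, and 132 and 128 FPKM, against 130 and 97.6 FPKM, for Cox8a.

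The 3 genes for the c subunit shared their summed level more evenly. Atp5g1 took 22.7% and 21.9% of their summed FPKM in the knockout libraries, against 19.0% and 20.3% in the wild type libraries. Atp5g2 took 36.4% and 35.3%, against 35.7% and 33.8%, and Atp5g3 took 40.97% and 42.8%, against 45.3% and 45.9%. The share of Atp5g1 was higher and that of Atp5g3 lower in both knockout libraries, again with an exact permutation p of 0.333, the smallest possible, so the shift cannot be told from chance by this test.

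**Figure D2:**
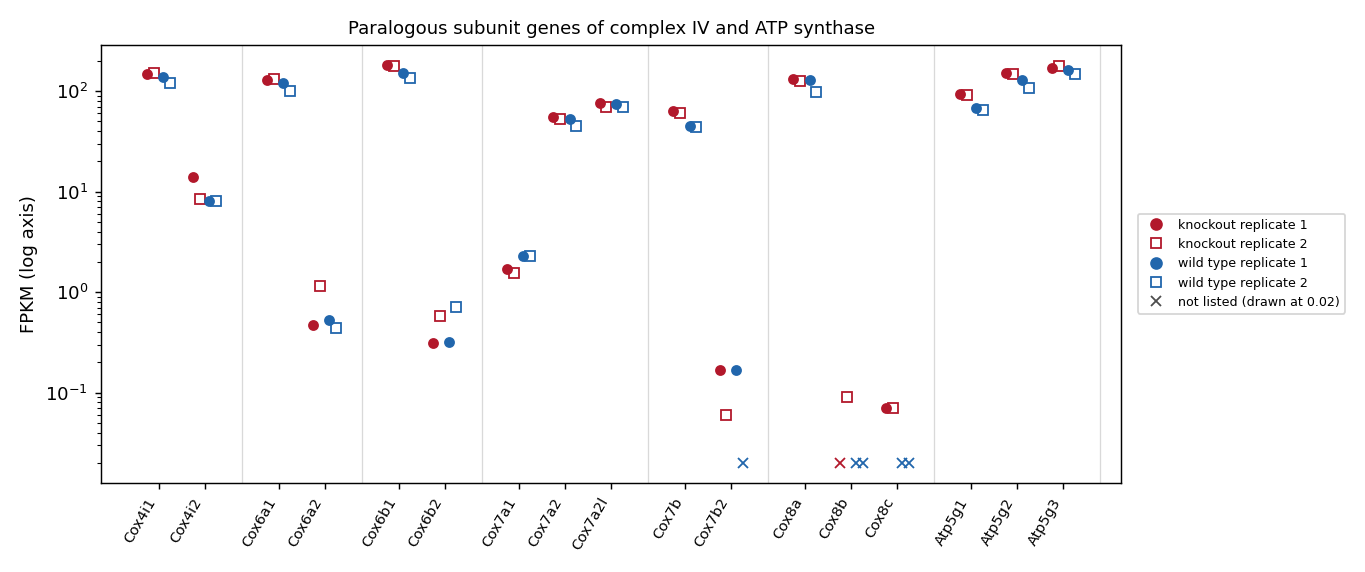
FPKM on a log axis of each paralogous subunit gene of complex IV and ATP synthase in the knockout (red) and wild type (blue) libraries, with crosses for genes not listed in a library. The widely expressed forms lie between 43.9 and 184 FPKM, whereas the forms known from muscle and testis lie at 2.31 FPKM or below and Cox4i2 lies between.

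Complex III, which passes electrons from ubiquinol to cytochrome c, had 9 genes, of which 0 passed. Uqcr11, a small membrane subunit, had 28.0 and 26.1 CPM in the knockout libraries, against 21.6 and 18.4 CPM in the wild type libraries. The groups were separated, with a log2 fold change of 0.43 and an adjusted p of 0.0581. Uqcrq, which encodes the ubiquinone-binding small subunit, had 67.4 and 70.4 CPM, against 60.6 and 55.3 CPM, with a log2 fold change of 0.25 (adjusted p = 0.0979). The core protein gene Uqcrc2 had 112 and 106 CPM, against 93.7 and 92.7 CPM, with a log2 fold change of 0.23 (adjusted p = 0.0956), and its counts were not whole in any library. Its partner Uqcrc1 had 76.9 and 78.2 CPM, against 82.4 and 68.8 CPM, a log2 fold change of 0.04, with the wild type libraries on either side of the knockout libraries.

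The catalytic subunits of complex III differed little. Cyc1, which holds the haem of cytochrome c1, had 64.0 and 65.9 CPM in the knockout libraries, against 59.4 and 54.0 CPM in the wild type libraries, with a log2 fold change of 0.20 (adjusted p = 0.159). The iron-sulfur protein gene Uqcrfs1 had the lowest level of the complex, 42.2 and 41.1 FPKM, against 39.6 and 33.2 FPKM, with a log2 fold change of 0.16 (adjusted p = 0.284). Uqcrb had the highest mean level, with 152 and 142 FPKM, against 124 and 130 FPKM, and a log2 fold change of 0.17 (adjusted p = 0.203). Uqcrh and Uqcr10 had log2 fold changes of 0.08 and 0.20.

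Complex II, succinate dehydrogenase, also belongs to the tricarboxylic acid cycle, and 0 of its 4 genes passed. Sdhb, the iron-sulfur subunit, had 60.02 and 62.8 CPM in the knockout libraries, against 53.8 and 47.2 CPM in the wild type libraries, with a log2 fold change of 0.28 (adjusted p = 0.0959). The membrane anchor Sdhd had 57.4 and 59.4 CPM, against 50.5 and 49.3 CPM, with a log2 fold change of 0.23 (adjusted p = 0.0952). Sdha, the flavoprotein that oxidises succinate, had 117 and 118 CPM, against 107 and 101 CPM, with a log2 fold change of 0.18 (adjusted p = 0.161). Groups were separated in these 3 genes. Per length, Sdhb had the highest mean level of the complex, 56.8 and 59.3 FPKM, against 50.3 and 43.0 FPKM, and Sdha the lowest, 41.4 and 41.5 FPKM, against 37.3 and 34.2 FPKM. The other anchor, Sdhc, had 46.5 and 45.6 CPM, against 47.8 and 44.0 CPM, a log2 fold change of 0.0046 with overlapping groups.

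Cycs encodes cytochrome c, which carries electrons to complex IV and, when released from mitochondria, triggers apoptosis. It had 179 and 158 CPM in the knockout libraries, against 149 and 161 CPM in the wild type libraries. Wild type replicate 2 lay above knockout replicate 2, and the log2 fold change of 0.13 did not pass (adjusted p = 0.389). Its counts were not whole in any library.

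Summed over genes, the level of every complex was higher in both knockout libraries. ATP synthase summed to 2016 and 1959 FPKM in the knockout libraries, against 1708 and 1509 FPKM in the wild type libraries, a ratio of group means of 1.24. Complex IV summed to 1419 and 1383 FPKM, against 1224 and 1091 FPKM, complex III to 759 and 743 FPKM, against 675 and 606 FPKM, and complex II to 185 and 188 FPKM, against 169 and 152 FPKM. The ratios were 1.21, 1.17 and 1.16. All 48 genes took 1.07% and 1.05% of the summed FPKM in the knockout libraries, against 0.941% and 0.862% in the wild type libraries. With 2 libraries a group, the exact permutation p is 0.333 at best.

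**Figure D3:**
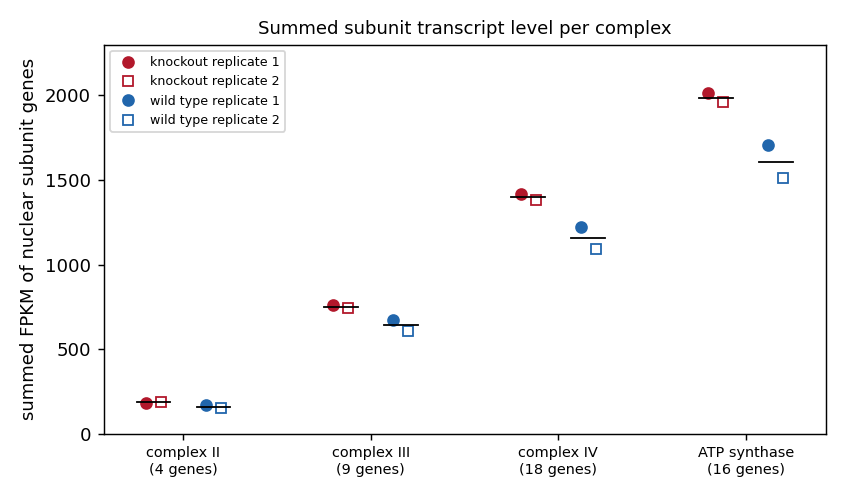
Summed FPKM of the nuclear subunit genes of each complex in the knockout (red) and wild type (blue) libraries, with the group mean as a bar. Knockout libraries lie above wild type libraries in all 4 complexes, by 1.16 to 1.24 times at the mean.

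Subunit genes are short, and the difference between knockout and wild type moved with gene length across the whole table. The median log2 fold change of all tested genes was 0.19 for 408 genes listed with a length under 750 bases, 0.18 from 750 to 1000 bases, 0.12 from 1000 to 1500, 0.05 from 1500 to 2500 and -0.05 for longer genes. Among 354 genes of at least 20 CPM and under 1000 bases that are no subunit genes, 12.4% were called higher, 83.1% had a log2 fold change above 0 and the median was 0.17. The 28 tested subunit genes under 1000 bases had 5 calls, 27 log2 fold changes above 0 and a median of 0.29. In 22 of the 28, both knockout libraries lay above both wild type libraries, against 63.8% of those 354 genes. The 16 longer ones had 1 call, Cox7b at 1176 bases, 15 log2 fold changes above 0 and a median of 0.18. The median of 6363 other genes of at least 1000 bases and 20 CPM was -0.02. These were not matched in length: 4448 of them had 2500 bases or more, while the 16 had a median length of 1399 bases. Other genes from 1000 to 1500 bases had a median of 0.11, with 77.1% above 0 and 4.67% called higher. Those from 1500 to 2500 bases had a median of 0.05. Across the 44 tested subunit genes, Spearman's rho between length and log2 fold change was -0.36, and across all tested genes it was -0.24. These are descriptions across genes, which share libraries and are not independent replicates.

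With an offset for each library that followed its trend of expression on gene length, an alternative chosen after seeing the data, 1 of the 6 calls was left. Cox7b then had a log2 fold change of 0.31 (SE 0.070, adjusted p = 0.0493 in edgeR). Atp5g1 had 0.24 (adjusted p = 0.0835), Atp5j 0.23 (adjusted p = 0.123), Atp5o 0.20 (adjusted p = 0.115), Atp5l 0.20 (adjusted p = 0.163) and Cox7c 0.14 (adjusted p = 0.344). The median over the subunit genes was then 0.081, with 29 of 44 above 0. In 13 genes the log2 fold change turned from above to below 0, the farthest in Uqcrh (-0.15) and Sdhc (-0.14), and none of these passed. It was 0.13 in ATP synthase, 0.11 in complex II, 0.010 in complex III and 0.0071 in complex IV. The part of gene length in the differences was not tested beyond this offset.

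**Figure D4:**
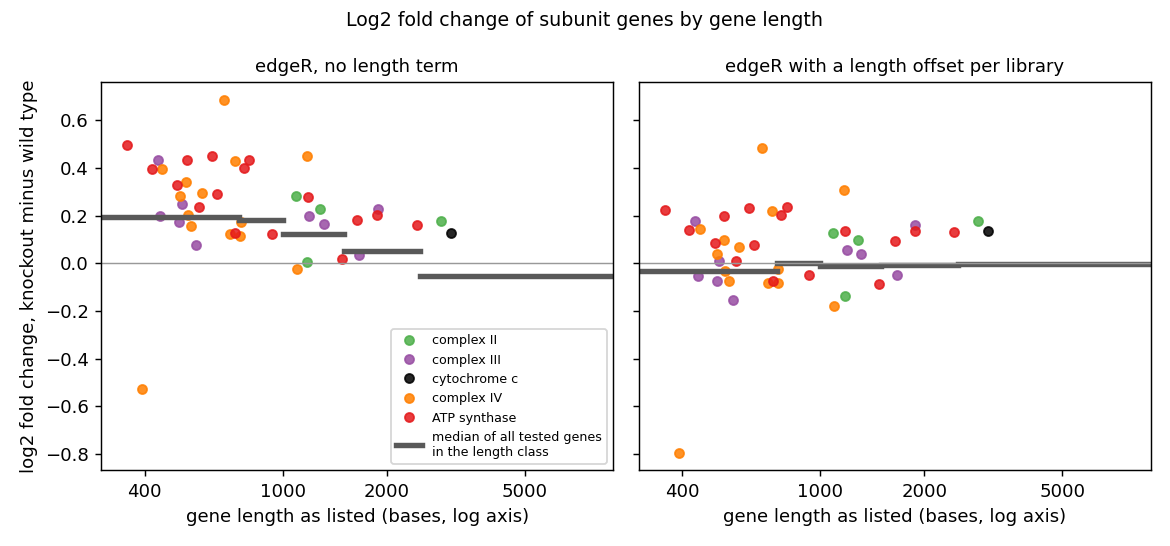
Log2 fold change (knockout minus wild type) of each tested subunit gene against its listed length on a log axis, without (left) and with (right) a length offset, with bars for the median of all tested genes in 5 length classes. The medians fall with length on the left, where the class under 750 bases is at 0.19, and lie near 0 on the right.

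In the authors' deposited table, which comes from DESeq2, 7 subunit genes were higher in the knockout at an adjusted p under 0.05 and 0 were lower, where 3.33% of 17529 genes were higher and 5.19% lower. They were the 6 genes above and Atp5k, for which the authors' deposited table gives a log2 fold change of 0.49 (adjusted p = 0.0392). DESeq2 run here on the estimated counts called 8, with Uqcr11 besides those 7, where 5.26% of genes were higher. Limma on log2(FPKM + 1) called 6, where 5.19% of genes were higher. Of the 6 genes called by edgeR, 5 were among them.

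Other genes of the pathway were described by list. Of 41 tested assembly factors of complexes II to IV and ATP synthase, 3 were higher (7.32%), 0 lower and the median log2 fold change was 0.15. Over all tested genes 3.62% were higher and 5.63% lower. Uqcc2, an assembly factor of complex III, had 24.8 and 23.5 CPM in the knockout libraries, against 17.3 and 16.8 CPM in the wild type libraries, a log2 fold change of 0.50 (adjusted p = 0.0259 in edgeR). Atpif1, the inhibitor of ATP hydrolysis by ATP synthase, had 18.7 and 19.2 CPM, against 13.4 and 11.9 CPM, a log2 fold change of 0.58 (adjusted p = 0.0288). Higd1a, a low-oxygen gene whose product associates with complex IV, had 82.3 and 79.0 CPM, against 64.2 and 59.6 CPM, a log2 fold change of 0.38 (adjusted p = 0.0299). Ndufa4, counted here with assembly factors and known as a subunit of complex IV, had a log2 fold change of 0.39 (adjusted p = 0.0509).

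Of 19 tested regulators of mitochondrial biogenesis, 0 were higher and 1 was lower, where 3.62% of all tested genes were higher and 5.63% lower. The regulators had a median log2 fold change of -0.08 and a median length of 3349 bases. All tested genes of 2500 bases or more had a median log2 fold change of -0.05, with 7.15% called lower. The one that fell was Sp1, a general activator of promoters rich in GC, with 118 and 114 CPM in the knockout libraries, against 143 and 143 CPM in the wild type libraries, a log2 fold change of -0.30 (adjusted p = 0.0460 in edgeR). At an unadjusted edgeR p under 0.05, 2 regulators were higher and 2 lower, where 13.8% of all tested genes were higher and 15.3% lower. Nrf1 and Gabpa, activators of respiratory genes, had log2 fold changes of -0.09 (adjusted p = 0.472) and -0.16 (adjusted p = 0.259). The coactivator Ppargc1a was near the filter, with 1.73 and 2.45 CPM, against 2.2 and 2.22 CPM.

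Of 14 enzymes of the tricarboxylic acid cycle 1 was higher (7.14%), 0 lower and the median log2 fold change was 0.16. Beside this list and those below, 3.62% of all tested genes were higher and 5.63% lower. Idh2, the mitochondrial isocitrate dehydrogenase that makes NADPH, had 21.8 and 26.3 CPM in the knockout libraries, against 14.9 and 14.2 CPM in the wild type libraries, a log2 fold change of 0.73 (adjusted p = 0.0203 in edgeR). Of 35 subunit genes of complex I, 7 were higher and 0 lower, with a median of 0.27 beside the 0.21 of the genes described here. Of 81 tested cytosolic ribosomal protein genes, which are also short, 1 was higher, Rpl39, and 0 lower, with a median of 0.10. Among 14 metabolic genes induced by low oxygen, 3 were higher and 1 lower: Ldha, lactate dehydrogenase, had a log2 fold change of 0.54 (adjusted p = 0.0219), Ndufa4l2, a low-oxygen relative of Ndufa4, had 0.53 (adjusted p = 0.0362), Higd1a was given above, and Vegfa, the vascular growth factor, had -0.86 (adjusted p = 0.0093). The list's genes did not move in 1 direction.

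Promoters of respiratory genes are known for sites of NRF1 and of ETS factors such as GABPA. Windows from 250 bases before to 50 bases after the start were taken from RefSeq (GRCm38.p6). The set used covered 37 of the 48 genes, in 40 windows, and did not hold every gene. Atp5a1 was among the subunit genes without a window in it, and the percentages below cover only genes in that set. GCGC, any 2 bases and GCGC, for NRF1, were present on either strand in 10 of the 37 genes (27.0%), against 7.0% of all 27025 genes with a window and 14.2% of the 10951 tested among them. CCGGAAG, for ETS factors, was in 12 genes (32.4%), against 9.93% and 18.7%. AAGATGGC, for YY1, was in 3 genes (8.11%), against 3.19% and 4.95%, TCAAGGTCA, for ERR, in 2 (5.41%), against 0.466% and 0.301%, and GGGCGG, for SP1, in 15 (40.5%), against 38.2% and 67.1%. TATAAA was in 3 genes (8.11%), against 15.7% and 9.19%. A match is a stretch of letters and not a bound site.

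Called and other genes did not share 1 pattern of letters. Of the 6 called genes, all of which had a window, Atp5j had ETS and YY1 matches, Atp5l 2 ETS matches and Atp5o overlapping NRF1 matches after its start, while Cox7b, Cox7c and Atp5g1 had none of these 3. The 250 bases before the start are given for 3 called genes that differ in this, and for Sdha, which had 3 NRF1 matches and was not called. The windows are chrX:106015450-106015699 (plus strand) for Cox7b, chr16:84834977-84835226 (minus strand, the first of its 2 windows) for Atp5j, chr9:44920743-44920992 (minus strand) for Atp5l and chr13:74350241-74350490 (minus strand) for Sdha. Sequences run 5′ to 3′ on the gene's strand, and capitals mark matches to the NRF1, ETS or YY1 letters on either strand.
Cox7b: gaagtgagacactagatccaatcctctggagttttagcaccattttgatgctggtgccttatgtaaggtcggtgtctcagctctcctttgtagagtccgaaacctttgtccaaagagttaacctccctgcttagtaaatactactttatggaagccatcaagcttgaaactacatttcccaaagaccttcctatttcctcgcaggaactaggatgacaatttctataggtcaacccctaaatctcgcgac
Atp5j: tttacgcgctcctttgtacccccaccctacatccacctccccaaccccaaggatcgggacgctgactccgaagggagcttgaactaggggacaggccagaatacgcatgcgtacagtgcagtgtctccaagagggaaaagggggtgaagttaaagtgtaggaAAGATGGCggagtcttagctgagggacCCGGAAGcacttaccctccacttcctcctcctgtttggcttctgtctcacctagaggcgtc
Atp5l: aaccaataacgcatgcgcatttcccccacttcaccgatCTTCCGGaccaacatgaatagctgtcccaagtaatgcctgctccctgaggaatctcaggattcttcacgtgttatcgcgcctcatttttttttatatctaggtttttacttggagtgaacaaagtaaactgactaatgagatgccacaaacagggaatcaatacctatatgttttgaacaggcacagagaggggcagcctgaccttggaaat
Sdha: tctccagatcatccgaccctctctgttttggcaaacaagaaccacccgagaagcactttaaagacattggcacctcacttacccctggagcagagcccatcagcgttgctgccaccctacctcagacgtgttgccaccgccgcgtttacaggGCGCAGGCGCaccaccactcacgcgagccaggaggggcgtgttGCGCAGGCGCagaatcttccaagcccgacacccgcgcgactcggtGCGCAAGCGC
The ETS and YY1 matches of Atp5j lie near its start, the first ETS match of Atp5l far from its start, and the NRF1 matches of Sdha in the stretch next to its start. The other ETS match of Atp5l lies after its start, outside the bases printed.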

How the data were processed

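RNA-seq values of 4 libraries were used, 2 knockout and 2 wild type, grouped by their titles. The authors deposited an expected count and an FPKM value per gene and library, with a gene length, per the file headers. Bowtie2 2.2.5 and build mm9 were used, per the submitters' processing notes, while the counting tool, the annotation release and the strand setting are details not given in the sources used. The authors also deposited a table of their own comparison by DESeq2, which holds a mean signal per group (normalized counts), the log2 fold change and p-values before and after adjustment, per the file headers. A gene not listed in a library was taken as 0. Of the listed counts 25.4% to 25.8% were not whole within 0.005.

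Rounded counts went into edgeR 4.0.16 under R 4.3.3 (TMM scaling, filterByExpr, quasi-likelihood F tests, all 4 libraries, no covariate), with Benjamini-Hochberg adjustment over 13773 genes and a threshold of 0.05. A log2 fold change is knockout minus wild type, and CPM is scaled by TMM. The biological coefficient of variation was 10.3%. Replicates differed beyond counting noise (chi-square per gene 22.1 in knockout, 20.2 in wild type). Depth was 31178248 to 32332044 counts per library, and limits from counts cover counting error only. The step was also run on simulated counts. These had less spread between libraries than the data and no trend with gene length, so that run does not bear on either.

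Alternatives were other scalings, no filter, DESeq2 1.42.0, limma 3.58.1 on log2(FPKM + 1) or log2(FPKM + 0.1) with a mean of at least 1 FPKM, a replicate block, each library left out and, added after seeing the data, a length offset from a lowess trend (span 0.3). Named genes were called members, the 3 with the smallest p, the highest and the lowest FPKM in each complex, paralogues, filtered members and up to 4 genes of each other list. Other members are named with their values for completeness. The members and lists were chosen with earlier results of these data known. Promoters came from RefSeq GRCm38.p6, leaving out chromosome 18, and no coordinates of that build were set beside mm9 values.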

Additional observations from a re-analysis of the deposited data

How the results depend on the processing

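The median log2 fold change of the subunit genes stayed above 0 in each setting run, and 0 were called lower in any. Of the 44 tested genes, 42 lay above 0 in the fit reported and 29 with the length offset. The number called depended on the setting. It was 6 in the fit reported, 3 with no filter on low counts, 15 with a replicate block, 1 with the length offset, 1 with the length offset and a replicate block, and 0 to 7 when 1 library was left out. With limma on log2(FPKM + 1) and no filter it was 0 (26 higher and 1 lower at an unadjusted p under 0.05). DESeq2 called 8 and limma with its filter 6. The median of the subunit genes was 0.19 to 0.30 with 1 library left out (the highest without wild type replicate 1), 0.081 with the length offset and 0.082 with the block as well. Their share of summed FPKM was 1.18 times as high in the knockout as in wild type, and 1.13 to 1.23 times with 1 library left out.

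Over all genes, 498 were higher and 776 lower. With no filter these were 265 and 455, with the replicate block 949 and 1367, and with the block and length offset 877 and 1263. With limma on log2(FPKM + 1) they were 562 and 506, which takes the lower share of calls to 47.4%, against 60.9%, and 494 were lower with a pseudocount of 0.1. With no FPKM filter limma called 0 either way (4107 at an unadjusted p under 0.05). Leaving out 1 library gave 0 to 450 higher and 0 to 825 lower. The replicate numbers do not establish pairs: same-numbered libraries' deviations correlated at 0.11, over 2 pairs.

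Signs changed in 13 genes with the length offset and in 13 with the block as well, and in up to 3 under any other setting, with none past the threshold. Cox7a2l went to 0.013 with library totals and 0.012 with limma in 3 forms. Leaving out 1 library in turn gave it -0.085 to 0.049, the highest without knockout replicate 2 and 0.0033 without wild type replicate 1. It gave Atp5s -0.092 (without wild type replicate 1) to 0.14, with -0.059 without knockout replicate 1, Sdhc -0.050 (without wild type replicate 2) to 0.068, with -0.0074 without knockout replicate 1, Uqcrc1 -0.082 (without wild type replicate 2) to 0.17, Cox6a2 -0.068 (without knockout replicate 2) to 1.18, and Cox8a -0.016 (without wild type replicate 2) to 0.36. With the length offset, and then with the block as well, values were -0.138 and -0.138 for Sdhc, -0.047 and -0.044 for Uqcrc1, -0.074 and -0.070 for Uqcrb, -0.153 and -0.153 for Uqcrh, -0.052 and -0.050 for Uqcr10, -0.026 and -0.026 for Cox4i1, -0.082 and -0.082 for Cox5a, -0.033 and -0.033 for Cox6a1, -0.085 and -0.084 for Cox7a2, -0.074 and -0.069 for Cox8a, -0.050 and -0.049 for Atp5d, -0.075 and -0.076 for Atp5g3, and -0.088 and -0.085 for Atp5s. The cause of these changes was not tested. Depth limits Cox6b2, Cox7b2, Cox8b and Cox8c, and 2 libraries a group limit the other genes.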
